A study of Mus musculus with 12 samples.

Results

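The variable (V) and joining (J) segments of the mouse T cell receptor genes were followed through RNA-seq libraries of mouse dendritic cells (DCs) from spleen, which present antigen to T cells. Members were chosen by their raw counts: they are the rows of the deposited raw count table whose GENCODE symbol begins with Trav, Traj, Trbv, Trbj, Trgv, Trgj, Trdv or Trdj and that held at least 1 count over the 12 libraries. Of 250 such rows in a table of 57009, 103 met this rule: 77 of 128 Trav, 21 of 35 Trbv, 1 of 1 Trgv and 4 of 6 Trdv. The 80 J rows were at 0 in every library; their annotated exons are 29 to 72 bases long, with a median of 60, and the reads were 50 bases long. The rule used the counts themselves, so that a member has counts is not a result. Of the 103 members, 100 are annotated as V genes and 3 as V pseudogenes, each of the latter with 1 count.

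The donors of the DCs were C57BL/6 mice bearing a B16 melanoma that secreted Flt3 ligand, which expands DCs in the host, and beads removed T, B and natural killer (NK) cells and macrophages from the spleen cells. The DCs were then cultured for 3 h in 4 groups of 3 libraries. The groups were DCs alone (DC only), DCs with lipopolysaccharide (LPS), DCs with syngeneic effector memory T cells of B6 (C57BL/6) mice (SynTem), and DCs with memory T cells of BALB/c origin that were specific for alloantigen (AlloTem). Cells were sorted on CD11b and CD11c after culture, and every library is labelled as DC RNA; the labels name no T cell marker in this sort, and do not say whether the replicates were separate animals or cultures. All comparisons of SynTem with AlloTem set T cells of different strains and different antigen experience side by side, and these cannot be told apart. In the AlloTem cultures BALB/c transcripts were counted against mm10, a C57BL/6J genome, and the part of sequence differences between the strains in the counts was not tested.

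A T cell receptor is a pair of chains, alpha with beta or gamma with delta. In the thymus each chain gene is assembled by joining a V segment to a J segment, upstream of a constant segment. In beta and delta a D segment lies between them. The V segment encodes most of the part that contacts antigen. Each T cell clone transcribes the V segments that it joined, and different clones can share a V segment. In mice, endogenous mouse mammary tumour viruses encode superantigens that bind the class II molecule I-E and remove developing T cells carrying particular V beta segments. C57BL/6 mice lack I-E, BALB/c mice have it, and Trbv12-1, Trbv12-2, Trbv15, Trbv16 and Trbv26 are among the segments known to be removed in BALB/c.

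The ends of the V beta segments on which the comparison turns are shown because the join to D and J falls there. Each run is the last 60 bases of the annotated GENCODE M21 transcript in GRCm38, 5′ to 3′ on the coding strand, and the capitals mark the codon of the conserved cysteine that opens the antigen-contacting loop. The first 5 are the superantigen-linked segments, and the last 3 are segments with large counts in both groups or in SynTem.
Trbv12-1: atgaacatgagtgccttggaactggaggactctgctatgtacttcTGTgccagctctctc
Trbv12-2: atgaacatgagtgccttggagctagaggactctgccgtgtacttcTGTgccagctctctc
Trbv15: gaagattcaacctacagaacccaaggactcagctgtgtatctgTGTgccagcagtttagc
Trbv16: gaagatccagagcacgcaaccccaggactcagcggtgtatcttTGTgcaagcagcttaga
Trbv26: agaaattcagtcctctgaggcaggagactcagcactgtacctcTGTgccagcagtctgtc
Trbv19: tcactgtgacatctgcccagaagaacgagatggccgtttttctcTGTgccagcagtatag
Trbv2: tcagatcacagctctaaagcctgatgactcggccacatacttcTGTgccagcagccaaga
Trbv3: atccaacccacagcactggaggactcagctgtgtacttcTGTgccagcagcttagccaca
These ends lie on the + strand at chr6:41114008-41114067 (Trbv12-1), chr6:41119305-41119364 (Trbv12-2), chr6:41141599-41141658 (Trbv15), chr6:41152171-41152230 (Trbv16), chr6:41227934-41227993 (Trbv26), chr6:41178989-41179048 (Trbv19), chr6:41047936-41047995 (Trbv2) and chr6:41048769-41048828 (Trbv3). Trbv12-1 and Trbv12-2 have the same base at 56 of the 60 positions. Over the whole annotated transcripts, the share of 50-base windows found in no other receptor gene's transcript was at least 98.8% for each V beta member. Against the transcripts of all genes, on either strand, it was 22.6% for Trbv5 and 27.9% for Trbv4, and unchanged for the other 19 V beta members.

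Counts over V segments were high in the cultures with T cells and low without them (the plot of V counts by library). Summed over all members, the DC only libraries held 7, 1 and 5 counts, the LPS libraries 23, 2 and 6, the SynTem libraries 144, 458 and 435, and the AlloTem libraries 133, 33 and 79. With library totals of 13903574 to 21861156 counts, this was 22.9 ± 11.1 CPM (counts scaled to the same total in every library) in SynTem and 3.85 ± 2.28 in AlloTem (SD, n = 3 each), against 0.247 ± 0.187 in DC only and 0.615 ± 0.678 in LPS. SynTem exceeded AlloTem in each of the 3 deposited batches, whose numbers equal the replicate numbers, by 1.70, 20.4 and 6.91 times. The lowest SynTem library, at 10.4 CPM, lay above the highest AlloTem library, at 6.08 CPM. In such bulk libraries fewer T cells and less receptor RNA per T cell cannot be told apart.

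**Figure D1:**
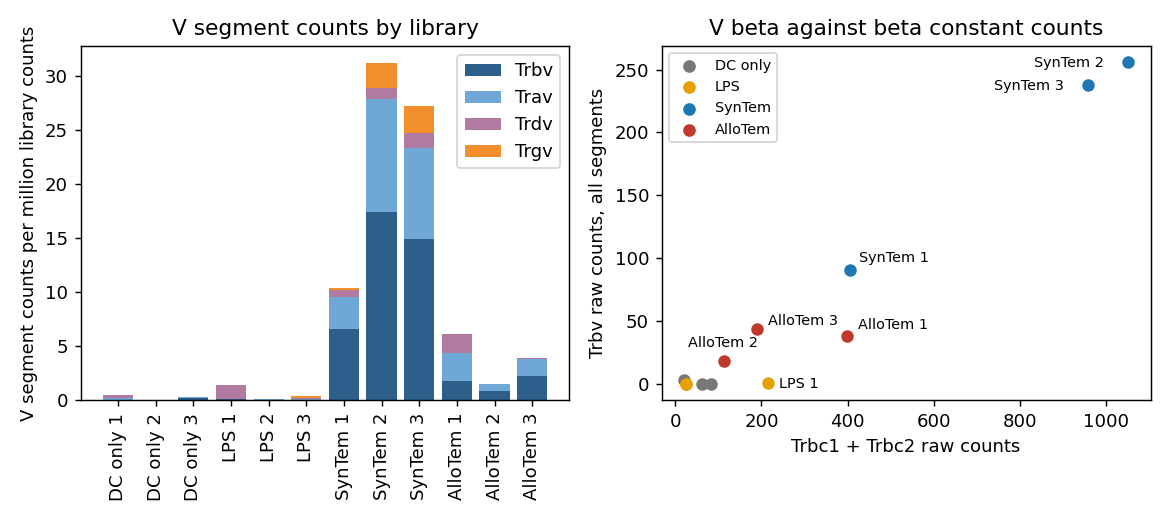
Left, V segment counts in CPM in each of the 12 libraries, stacked by kind of segment. Right, raw counts of all Trbv segments against raw counts of the constant segments Trbc1 and Trbc2, 1 point a library; LPS 1 has 216 constant counts and 1 V beta count.

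The segments were few counts each. Of the 103 members, 67 had under 10 counts over the 12 libraries and 14 had exactly 1. In SynTem and in AlloTem both, 44 members had counts; 50 had counts in SynTem and not AlloTem, and 9 the reverse. Members with counts in DC only or LPS numbered 10, and all of these also had counts in a culture with T cells. Because AlloTem held 245 V counts in all and SynTem 1037, absence from AlloTem is a statement about this depth, and a count of 0 allows up to 3 counts.

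Constant segment counts were set beside the V counts to see whether both were high in the same libraries. Trbc1 and Trbc2, the constant parts of the beta chain, summed to 406, 1051 and 957 counts in SynTem and 399, 114 and 189 in AlloTem. Per 100 of these, the SynTem libraries had 22.4, 24.4 and 24.9 V beta counts and the AlloTem libraries 9.52, 15.8 and 23.3. The ratio was thus nearly even over the SynTem libraries, and only AlloTem 3 came near it among the AlloTem libraries. LPS 1 had 216 constant counts with 1 V beta count, or 0.463 per 100. DC only 1 and DC only 2 had 63 and 84 constant counts with 0 V beta counts. Trbc1 held 157, 51 and 60 of the constant counts in these libraries, and 229 of the 399 in AlloTem 1. The ratio thus depends in part on Trbc1 counts that can occur without V beta counts. For the alpha chain, the SynTem libraries had 30.4, 33.1 and 32.4 V counts per 100 counts of its constant segment Trac and the AlloTem libraries 51.8, 22.6 and 32.0, and the groups overlapped.

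Genes that define T cells moved with the V segments. Cd3e, a signalling subunit of the receptor complex, had 0, 1 and 5 counts in DC only, 20, 4 and 6 in LPS, 144, 756 and 512 in SynTem, and 138, 59 and 83 in AlloTem. Its level was higher in the cultures with T cells than in those without by 5.44 ± 0.61 on the log2 scale (edgeR quasi-likelihood test, adjusted p = 0.00247). Of a list of 30 T cell receptor complex and T lineage genes, 28 were tested in this comparison, 16 rose and 0 fell, with a median log2 change of 2.39 against -0.00015 for all genes; over all 14413 genes tested 1.12% rose. Trac rose by 4.16 ± 0.47 and Trbc2 by 3.48 ± 0.57 (edgeR, adjusted p = 0.00247 and 0.0190), while Trbc1, at 1.84 ± 0.69, did not pass (adjusted p = 0.322). Between AlloTem and SynTem edgeR called 0 of the 28 (0.167% of all genes were called), 15 were under an unadjusted p of 0.05 and DESeq2 called 7, with a median of -1.60 against -0.01 for all genes. The 13 DC genes of a list checked for the label summed to 12548 to 20762 CPM over the 12 libraries, and the 30 T lineage genes to 91.1 to 949.

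V beta segments held 585 of the 1037 V counts in SynTem and 100 of 245 in AlloTem, where V alpha segments held 105. In SynTem they summed to 91, 256 and 238 counts and in AlloTem to 38, 18 and 44; DC only 3 had 3 and LPS 1 had 1, all in Trbv19, and the other T-cell-free libraries had 0. The mean was 13.0 ± 5.71 CPM in SynTem and 1.59 ± 0.692 in AlloTem (SD, n = 3 each). Of the 21 V beta members, 16 were lower in every AlloTem library than in any SynTem library in CPM and 0 were higher. Over the 25444 genes with any count, 5.32% were lower in this way and 3.89% higher. The other 5 were Trbv2, whose levels overlapped, and Trbv12-1, Trbv20, Trbv23 and Trbv30, which had 0 counts in at least 1 SynTem library. Some of the 16 were separated only by the larger totals of the AlloTem libraries. In raw counts the lowest SynTem library tied with the highest AlloTem library for Trbv13-1, Trbv13-2, Trbv13-3, Trbv16, Trbv17 and Trbv31. Trbv4 had 3 counts in SynTem 3 and 4 in AlloTem 2. The rest of the 16 did not overlap in raw counts either. The mean levels of Trac and Cd3e were also lower in AlloTem, so the shares within the V beta counts are given next.

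The superantigen-linked segments made up less of the V beta counts in AlloTem than in SynTem (the plot of shares by library). Trbv12-1, Trbv12-2, Trbv15, Trbv16 and Trbv26 together held 11 of 91 V beta counts in SynTem 1, 62 of 256 in SynTem 2 and 74 of 238 in SynTem 3. In AlloTem they held 0 of 38, 0 of 18 and 5 of 44. As shares with exact 95% binomial intervals, SynTem had 12.1% (6.19 to 20.6), 24.2% (19.1 to 29.9) and 31.1% (25.3 to 37.4). AlloTem 3 had 11.4% (3.79 to 24.6), and the 0 counts in AlloTem 1 and AlloTem 2 allowed up to 9.25% and 18.5% by the same intervals, or 7.89% and 16.7% by the limit of 3 counts. The groups did not overlap, from which it follows that AlloTem was lower in each batch. The means were 22.5% ± 9.62 in SynTem and 3.79% ± 6.56 in AlloTem (SD, n = 3 each). SynTem 1 and AlloTem 3 were nevertheless adjacent. The interval of SynTem 1 overlapped those of AlloTem 1, AlloTem 2 and AlloTem 3, and that of SynTem 2 overlapped that of AlloTem 3. Intervals cover counting error only, and reads of 1 T cell or clone are not independent. No test is given, since the segments were chosen with results of these data known; 3 libraries against 3 cannot give an exact two-sided p under 0.1.

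**Figure D2:**
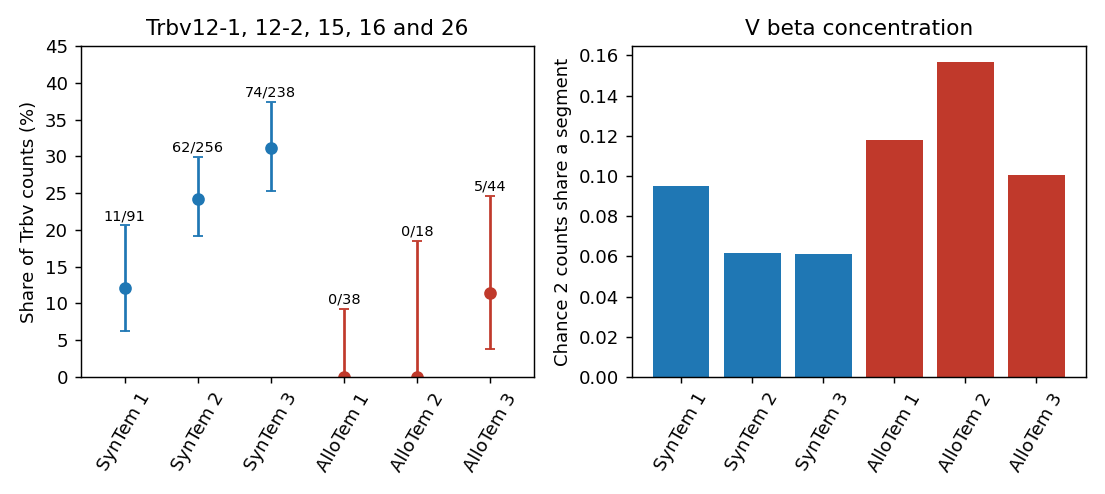
Left, share of V beta counts in Trbv12-1, Trbv12-2, Trbv15, Trbv16 and Trbv26 in each culture with T cells; bars are exact 95% binomial intervals and the labels give the counts. Right, the chance that 2 V beta counts of a library are from the same segment; AlloTem 2, with 18 counts, has the highest value, 0.157.

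Each of these 5 segments had counts in at least 2 SynTem libraries. Trbv12-1 had 0, 5 and 11 counts in SynTem, Trbv12-2 had 1, 11 and 14, and Trbv26 had 1, 12 and 13, and all 3 were at 0 in every AlloTem library. Fold bounds in CPM set the pooled SynTem counts, as observed, against a floor of 3 counts over the AlloTem group. They were at least 7.60-fold for Trbv12-1, at least 12.3-fold for Trbv12-2 and at least 12.3-fold for Trbv26. These bounds leave out counting error and the spread among libraries in SynTem, and do not hold for SynTem 1 alone. Part of these bounds goes with the lower V beta total of AlloTem. Trbv15 had 5, 21 and 12 counts in SynTem and 0, 0 and 1 in AlloTem. Trbv16 had 4, 13 and 24 in SynTem and 0, 0 and 4 in AlloTem. The 5 superantigen-linked counts of AlloTem therefore all came from AlloTem 3; without that library the AlloTem share was 0%. Over the pooled counts the share was 25.1% (147 of 585) in SynTem and 5.0% (5 of 100) in AlloTem.

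Several other V beta segments had a higher mean share in AlloTem. Trbv19 had 15, 21 and 12 counts in SynTem and 8, 6 and 5 in AlloTem, and Trbv2 had 1, 28 and 15 in SynTem and 6, 3 and 9 in AlloTem. Trbv2 held 6.11% ± 4.92 of V beta counts in SynTem and 17.6% ± 2.48 in AlloTem, with no overlap between the groups. Trbv19 held 9.91% ± 5.91 and 21.9% ± 11.01, and Trbv19 was the most counted segment in AlloTem 1 and AlloTem 2; the shares overlapped. Trbv31, the only V beta segment on the opposite strand of its locus, downstream of the constant segments, held 5.46% ± 3.15 and 11.7% ± 5.39. Trbv4 had the largest ratio of mean shares, 3.23, from 3, 4 and 2 counts in AlloTem, and its shares overlapped. Counts in Trbv4 and Trbv5 are uncertain, because 295 and 292 of their exon bases are shared with the gene 5830405F06Rik on the same strand (the low window shares above).

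Among the segments outside the superantigen-linked list, Trbv29 and Trbv14 were lower in share in AlloTem. Trbv29 had 6, 10 and 22 counts in SynTem and 0, 0 and 1 in AlloTem, a share of 6.58% ± 2.67 against 0.758% ± 1.31. Trbv14 had 3, 18 and 17 in SynTem and 1, 0 and 1 in AlloTem, a share of 5.82% ± 2.19 against 1.64% ± 1.43. In all, 5 of 21 V beta segments or 23.8% (Trbv12-2, Trbv14, Trbv15, Trbv26 and Trbv29) were lower in share in every AlloTem library than in any SynTem library. Trbv2 was higher, and 15 overlapped. Over all genes with any count, 5.32% were lower and 3.89% higher without overlap, but in CPM. Shares within V beta counts have no such figure over all genes. With 18 to 44 counts in an AlloTem library, 1 count moved a share by several percent.

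**Figure D3:**
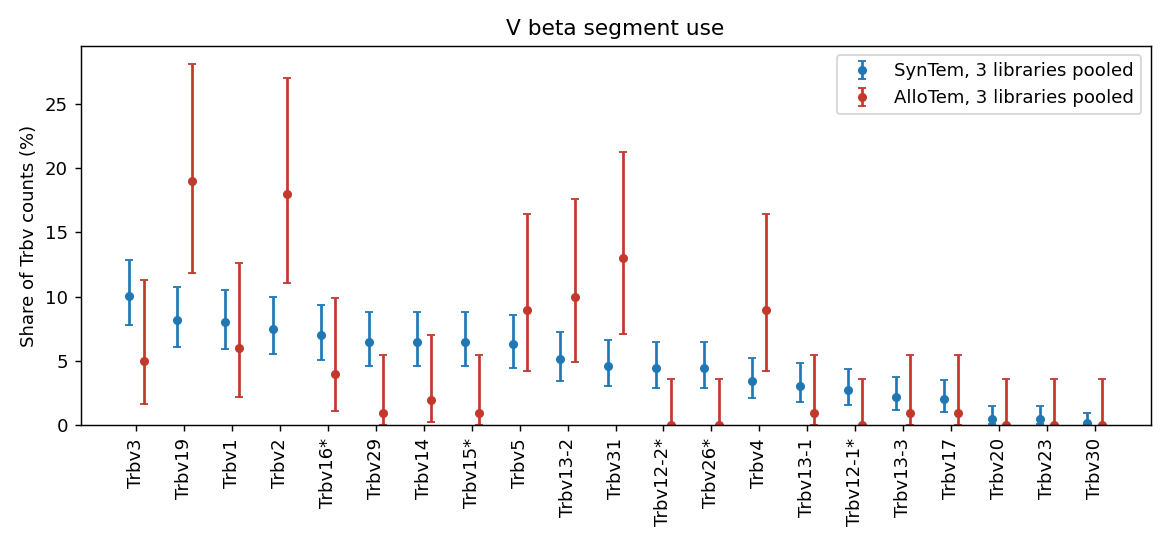
Share of V beta counts held by each Trbv member, with the 3 libraries of SynTem and the 3 of AlloTem each pooled. Bars are exact binomial intervals on the pooled counts, and an asterisk marks the superantigen-linked segments. Single libraries are not plotted. By library, Trbv12-1, Trbv12-2 and Trbv26 are at 0 in all 3 of AlloTem, and Trbv2 is higher in all 3 than in any SynTem library.

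V beta counts were spread over more segments in SynTem. The libraries held 17, 19 and 20 segments in SynTem and 9, 8 and 12 in AlloTem. At 18 counts a library, the depth of AlloTem 2, 9.51, 11.2 and 11.2 segments would be expected in SynTem and 7.62, 8 and 8.83 in AlloTem. The chance that 2 counts of a library are from the same segment, which does not depend on depth in expectation, was 0.0950, 0.0617 and 0.0614 in SynTem and 0.118, 0.157 and 0.1004 in AlloTem, with means of 0.0727 ± 0.0193 and 0.125 ± 0.0289 (SD, n = 3). The groups did not overlap, but SynTem 1 and AlloTem 3 were again adjacent.

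Only 3 V segments had enough counts to be fitted. Trbv1, Trbv3 and Trbv19 passed the filter on low counts, among 14413 genes that did. Their SynTem libraries were the highest and carried them past it, so these 3 do not stand for the other 100 members. Trbv1 had 12, 15 and 20 counts in SynTem and 5, 1 and 0 in AlloTem. Trbv3 had 16, 22 and 21 in SynTem and 0, 1 and 4 in AlloTem. In AlloTem against SynTem edgeR called none of them (0.167% of all genes were called); each was under an unadjusted p of 0.05, as were 1381 of the 14413 genes, and because of how they passed the filter nothing is read from their number. Trbv3 differed by -3.88 ± 0.91 in log2 (edgeR quasi-likelihood test, adjusted p = 0.203), Trbv1 by -3.30 ± 0.97 (adjusted p = 0.329) and Trbv19 by -1.76 ± 0.75 (adjusted p = 0.485). Called genes numbered 24 without and 78 with the batch as a block, and 0 V segments were called either way.

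Against the cultures without T cells, 1 of the 3 was called, Trbv19 (1.42% of all genes were called, 1.12% higher). Its level was higher by 3.82 ± 0.73 in log2 (edgeR quasi-likelihood test, adjusted p = 0.0309), and it was lost without each of 10 of the 12 libraries in turn, with an adjusted p of 0.0509 to 0.0965, the exceptions being DC only 3 (0.0214) and LPS 1 (0.0453), the libraries in which it had T-cell-free counts. Trbv1 and Trbv3 had 0 counts in all 6 T-cell-free libraries and were not called (edgeR, adjusted p = 0.0989 and 0.0806). For SynTem against DC only, fold bounds in CPM set the pooled SynTem counts, as observed, against a floor of 3 counts over the DC only group. Trbv3 was at least 23.7-fold higher and Trbv1 at least 18.9-fold higher. There edgeR called 0 of 3 (0.0902% of all genes were called), with 3 under an unadjusted p of 0.05. DESeq2 called 8 of the 18 members to which it gave an adjusted p, against 1.48% of all genes with one. DESeq2 gives an adjusted p only above a mean count, which for most members came mainly from SynTem. Nothing is therefore read from the 8 of 18. AlloTem against DC only called 0 of 3 V segments (1.76% of all genes), with 1 under an unadjusted p of 0.05 and 0 of 13 called by DESeq2 (3.93% of all genes), and LPS against DC only called 0 of 3 (0% of all genes; 531 genes at an unadjusted p under 0.05, and 9 by DESeq2).

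V alpha counts were spread over many near-identical segments. The Trav members are on chromosome 14, where a stretch of the locus is present in repeated copies in C57BL/6, whose segments carry d or n in their names. The median share of 50-base windows unique to a member was 37.2%, 48 of the 77 members were under 50%, and 22 had none (against the transcripts of all genes). Of 18 pairs of segments with an identical annotated transcript, 13 had counts, and 3 pairs (Trav3d-3 with Trav3n-3, Trav4d-4 with Trav4n-4, and Trav5d-4 with Trav5n-4) had equal counts in every library. Others were split unevenly, as Trav9d-3 with 1 count and Trav9n-3 with 14 over the 12 libraries, so values of single Trav segments are uncertain. Summed to families by the number after Trav, they gave 16 families, 12 of which had counts in both groups.

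The shares of Trav7 and Trav3 were higher in every AlloTem library than in any SynTem library, and those of Trav13, Trav12 and Trav4 lower. The other 11 of 16 families overlapped (the plot of V alpha families). By single segments, 6 of 77 Trav members were lower in share without overlap, 3 were higher and 68 overlapped. Members at 0 counts in a SynTem library, which most were, could not be lower without overlap. Shares within V alpha counts have no such figure over all genes. Trav7 had 4, 11 and 16 counts in SynTem and 16, 3 and 9 in AlloTem, or 9.52% ± 2.33 of V alpha counts and 25.4% ± 3.47 (SD, n = 3), with no overlap. Trav13 had 3, 20 and 18 counts in SynTem and 0 in every AlloTem library, and Trav4 had 7, 7 and 7 against 0. Trav12 had 4, 21 and 10 counts in SynTem and 4, 0 and 1 in AlloTem, or 10.2% ± 3.22 and 3.31% ± 3.46. Trav3, with 1, 4 and 6 counts in SynTem and 4, 1 and 2 in AlloTem, was at 3.15% ± 1.13 and 6.70% ± 0.567. Trav9 was at 11.9%, 11.1% and 8.89% in SynTem and at 22.4%, 0% and 15.2% in AlloTem, and overlapped.

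**Figure D4:**
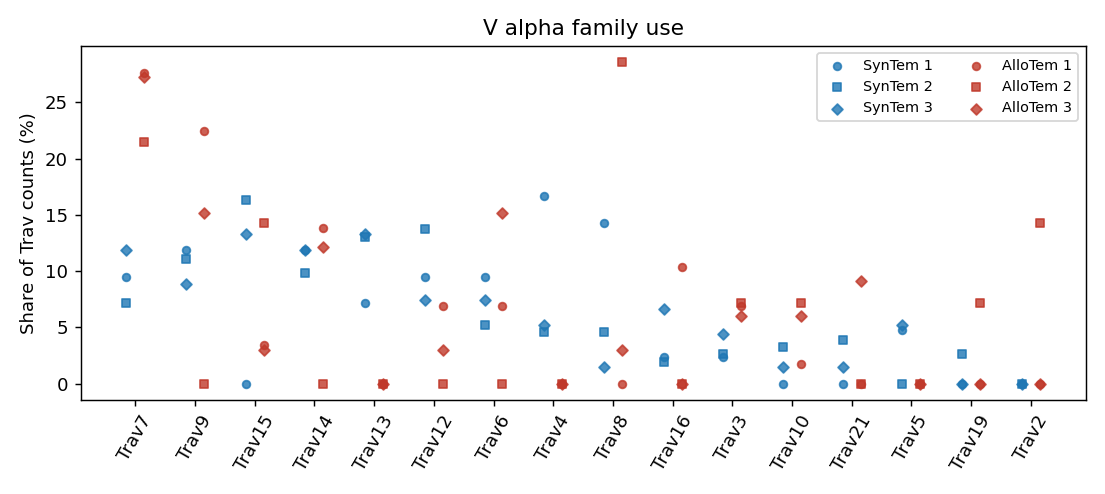
Share of V alpha counts held by each Trav family in the SynTem and AlloTem libraries, ordered by total count. Trav7 is at 21.4% or more in all 3 AlloTem libraries and at 11.9% or less in SynTem, and Trav13 and Trav4 are at 0 in AlloTem.

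The most counted single V alpha segment was Trav13-4-dv7, which can also join in the delta chain, and its end is shown because it was at 0 in AlloTem.
Trav13-4-dv7: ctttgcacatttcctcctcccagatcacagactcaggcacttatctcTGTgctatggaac
It lies at chr14:53757862-53757921 on the + strand. It had 2, 13 and 14 counts in SynTem and 0 in the other 9 libraries. With the pooled SynTem counts as observed, it was at least 13.8-fold higher in CPM than a floor of 3 counts over the AlloTem group. The next by total were Trav15d-2-dv6d-2 (0, 8 and 12 in SynTem, 1, 0 and 0 in AlloTem), Trav12-3 (2, 9 and 3, then 4, 0 and 1), Trav7-4 (0, 2 and 4, then 4, 2 and 6) and Trav14d-3-dv8 (3, 4 and 0, then 6, 0 and 4). In CPM, 6 of the 77 Trav members (7.79%) were lower in AlloTem without overlap and 0 higher, against 5.32% and 3.89% of all genes with any count. A member at 0 counts in any SynTem library cannot be lower in this way. Most Trav members were at 0 in at least 1, so nothing is read from these figures. Summed over Trav members, the SynTem libraries were at 3.02, 10.4 and 8.45 CPM and the AlloTem libraries at 2.65, 0.65 and 1.65, without overlap. The chance that 2 V alpha counts share a segment was 0.0322 ± 0.00534 in SynTem and 0.0725 ± 0.0253 in AlloTem (SD, n = 3). With members under 10 counts left out the values were 0.116 and 0.133, and with segments summed to families 0.0913 and 0.135, so both the values and the distance between the groups depended on this choice.

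Segments of invariant T cells were looked for by name. Trav11, Trav11d and Traj18, which form the alpha chain of invariant natural killer T cells, and Trav1 and Traj33, which form that of mucosal-associated invariant T cells, had 0 counts in all 12 libraries. All 80 J rows were at 0, so the 0 counts of Traj18 and Traj33 say nothing about these cells. Of the 128 Trav rows 51 were at 0, so absence of Trav11, Trav11d and Trav1 is a statement about this depth. The V beta segments that invariant natural killer T cells use most had counts, and conventional T cells use them too. Trbv13-2 had 6, 15 and 9 counts in SynTem and 4, 0 and 6 in AlloTem, and the values of Trbv1 and Trbv29 are given above.

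Gamma chain counts sat in a pair of SynTem libraries. Trgv2, the one member of the gamma locus and on the - strand of chromosome 13, had 2, 34 and 40 counts in SynTem, 0, 0 and 1 in AlloTem, 0, 0 and 3 in LPS and 0 in DC only. The constant segments Tcrg-C1 to Tcrg-C4 summed to 6, 295 and 203 in SynTem and 9, 1 and 27 in AlloTem, so SynTem 2 and SynTem 3 were high in both (the plot of gamma and delta segments). Tcrg-V1 and Tcrg-V4, gamma V segments with other symbols, had 0, 12 and 9 and 0, 27 and 21 counts in SynTem. DESeq2 called 1 of the 8 V segments to which it gave an adjusted p between AlloTem and SynTem, Trgv2 (log2 change -6.50, adjusted p = 0.0298), against 1.99% of all genes with one. These 8 were given one by their mean count, which for most V segments came mainly from SynTem. Nothing is therefore read from the 1 of 8. For Trgv2 edgeR without the filter gave -6.08 ± 1.42 (adjusted p = 0.150).

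The most counted delta segment had its highest counts outside SynTem. Trdv4 had 4, 0 and 0 counts in DC only, 17, 0 and 1 in LPS, 6, 1 and 7 in SynTem and 26, 1 and 1 in AlloTem. Its highest libraries, AlloTem 1 and LPS 1, were also the highest in Ncr1, an activating receptor of NK cells, at 25.1 and 32.2 CPM. A list of 10 NK genes, chosen after the values were seen, summed to 861 and 914 CPM in these, to 725 in SynTem 1, to 435 and 444 in DC only 1 and DC only 2, and to 124 to 285 in the other 7 libraries; 10 of its 10 genes had counts, and the part of NK cells in the delta counts was not tested. Not every gene of the list was highest in AlloTem 1 and LPS 1. Klrk1, a large part of many of the sums, was at 164 and 217 CPM there. It was higher in DC only 1, DC only 2 and LPS 2, at 223, 236 and 247. Tbx21 and Klra8 were at 27.31 and 21.73 CPM in AlloTem 1 and at 30.57 and 22.15 in SynTem 1. The remaining listed genes were highest in LPS 1 and AlloTem 1. In DC only 2, with Ncr1 at 8.12 CPM, Trdv4 was at 0. Trdc, the delta constant segment, had 21, 26 and 17 counts in DC only, 50, 0 and 10 in LPS, 42, 413 and 375 in SynTem, and 75, 4 and 12 in AlloTem.

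**Figure D5:**
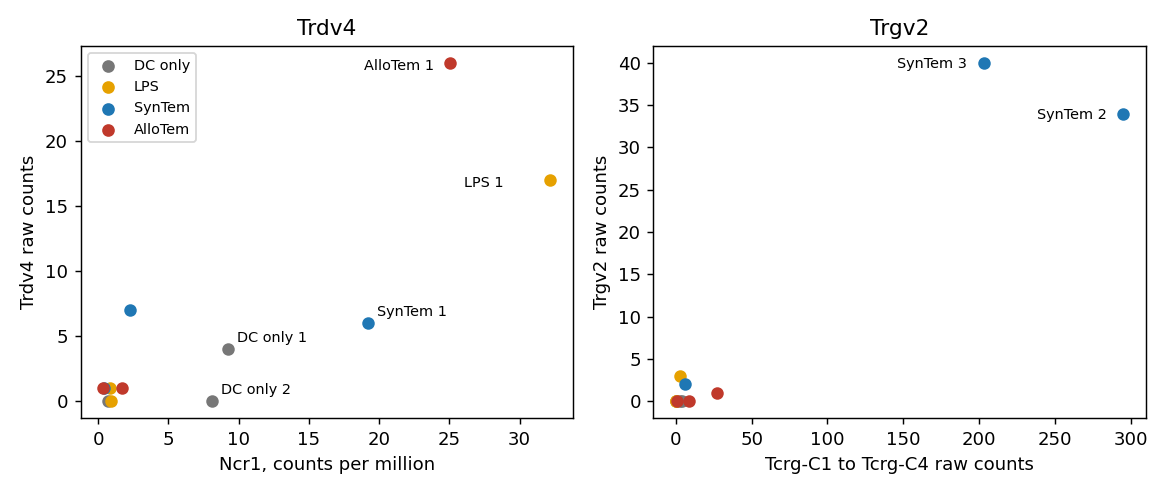
Left, Trdv4 raw counts against Ncr1 CPM; right, Trgv2 raw counts against the summed raw counts of Tcrg-C1 to Tcrg-C4, 1 point a library. AlloTem 1 and LPS 1 are highest for Trdv4 with 26 and 17 counts, and SynTem 2 and SynTem 3 for Trgv2 with 34 and 40.

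The other delta segments followed different libraries. Trdv5 had 0, 8 and 12 counts in SynTem, 4, 0 and 0 in AlloTem and 1 in DC only 2; it shares 207 exon bases with Trdc on the opposite strand, and without a stated strand setting reads of the pair cannot be told apart. Trdv2-2 had 5 counts in LPS 1, 3, 6 and 0 in SynTem and 6, 0 and 0 in AlloTem, and shares 105 exon bases with Gm43647 on the opposite strand. Trdv1 had 3 counts in SynTem 3 and 1 in AlloTem 1.
In CPM all 4 Trdv members overlapped between SynTem and AlloTem. The ends of the gamma member and of the most counted delta segments are shown.
Trgv2: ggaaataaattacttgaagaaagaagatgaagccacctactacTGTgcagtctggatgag
Trdv4: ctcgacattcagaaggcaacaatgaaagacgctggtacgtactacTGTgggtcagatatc
Trdv5: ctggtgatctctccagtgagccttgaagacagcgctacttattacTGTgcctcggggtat
They lie at chr13:19336573-19336632 (- strand), chr14:54075456-54075515 (+ strand) and chr14:54148662-54148721 (- strand).

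Spearman's rho between the levels of a V beta segment and of the beta constant segment Trbc2 over the 12 libraries was 0.753 to 0.903, with a median of 0.839, for the 14 V beta segments with at least 20 counts. The highest values were 0.903 for Trbv5, whose counts are uncertain as stated above, 0.896 for Trbv31, and 0.889 for Trbv13-2 and for Trbv14, given as a description because the libraries share their T cell content. Per kilobase of annotated exon, the total raw counts were highest for Trgv2 (162.9), Trdv4 (144.1), Trbv3 (140.7), Trbv1 (127.1) and Trbv19 (125.4). By other lists, edgeR called 0 of 3 gamma delta T cell genes tested between AlloTem and SynTem (2 at an unadjusted p under 0.05, 2 by DESeq2) and 0 of 5 B cell genes (1 and 1). It called 0 of 4 invariant T cell genes, 0 of 2 V(D)J recombination genes and 0 of 10 NK genes, with 0 unadjusted and 0 by DESeq2 in each, and 1 of 13 DC genes, higher.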

How the data were processed

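The authors deposited raw counts for 57009 gene identifiers in 12 libraries (TruSeq, single-end reads of 50 bases, per the labels), with totals of 13903574 to 21861156. Per the submitters' processing notes the reads were placed on mm10; how they were aligned and counted, with which strand setting and annotation, and what was done with reads of several matches was not given in the sources used here. Names, exons and transcripts came from GENCODE M21, which named 52028 identifiers; the other 4981 were kept out of the member rule. Members and lists were chosen with earlier results of these data known, so no p-value is given over members. The named segments were the 5 with most counts in each kind, those passing the filter, those of the superantigen and invariant lists, and the 5 with the highest and the 5 with the lowest ratio of shares among those with at least 20 counts.

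Counts were tested with edgeR 4.0.16 (R 4.3.3) on the deposited counts: filterByExpr (minimum count 10, minimum total 15), TMM scaling, quasi-likelihood test over 12 libraries with 1 mean per group, Benjamini-Hochberg adjustment over 14413 genes, called under 0.05. Standard errors are the log2 change over the square root of F. Shares, CPM (counts scaled to a common library total) and intervals (exact binomial, 95%) were computed from raw counts with scipy 1.17.1, and expected segment numbers by the hypergeometric formula. A window was unique if found in the GENCODE transcripts of no other receptor gene or, where so stated, of no other gene on either strand. Alternatives were RLE scaling, no filter, DESeq2 1.42.0, the 6 libraries compared, the batch as a block, leaving out each library, leaving out pseudogenes or members under 10 counts, and, added after the values were seen, V alpha families. A second deposited table gives batch numbers, which match the replicate numbers in all 12 libraries, so the numbers were taken as pairing libraries. Deviations from group means correlated with a median of 0.247 over 18 pairs of the same number and -0.20 over other pairs. SynTem 2 went the other way. Its values were -0.249, -0.009 and -0.095 with DC only 2, LPS 2 and AlloTem 2. With DC only 3, LPS 3 and AlloTem 3 they were 0.388, 0.451 and 0.476. Comparisons within a batch may therefore not set matched libraries side by side. The labels name no separate cultures or animals, and the p-values rest on the spread among the libraries as deposited, which may be technical. Only the edgeR fit of AlloTem against SynTem was tested on simulated data, for genes passing the filter and with the same spread for every gene. The shares, concentrations, intervals and fold bounds were not tested in this way. The fold bounds leave out counting error and the spread among libraries in the higher group.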

Additional observations from a re-analysis of the deposited data

How the results depend on the processing

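Counts of called genes depended on the settings. For AlloTem against SynTem 24 genes were called, 41 without the filter on low counts, 309 by DESeq2, 78 with the replicate block, 0 in the fit of the 6 libraries compared alone (989 at an unadjusted p under 0.05), and 3 to 47 leaving out 1 library. For SynTem against DC only the count was 13, then 33 without the filter, 251 by DESeq2, 21 with the block, and 0 to 56 leaving out 1 library. For AlloTem against DC only it was 253, then 630 by DESeq2, 420 with the block, and 42 to 323. For LPS against DC only it was 0, then 9 by DESeq2 and 0 to 1. For the cultures with T cells against those without it was 205, then 505 by DESeq2, 321 with the block, and 66 to 218. The cause of these differences was not tested. Under the block Trbv19 stayed called against the cultures without T cells (edgeR, adjusted p = 0.0388), and no other V segment was called in any comparison.

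V alpha concentration changed with what was counted: 0.0322 in SynTem and 0.0725 in AlloTem became 0.116 and 0.133 for members with at least 10 counts, and 0.0913 and 0.135 for families. Leaving out 1 library, the superantigen-linked share was 18.2% to 27.7% in SynTem and 0% (without AlloTem 3) to 5.68% in AlloTem. Depth limits all of this: an AlloTem library held 18 to 44 V beta counts, and 67 of 103 members had under 10 counts in all.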
